A study of Homo sapiens with 4 samples.

Results

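The keratin and epidermal differentiation gene clusters were described by where CHD5 and H3K27me3 lay in them, in SH-SY5Y cells. These cells are an established line from a human neuroblastoma, and retinoic acid drives them towards a neuronal form. The clusters were taken as 4 fixed intervals of hg19: chromosome 12 from 52.56 to 53.35 Mb (type II keratins), chromosome 17 from 38.8 to 39.8 Mb (type I keratins and keratin-associated proteins), chromosome 1 from 151.95 to 153.65 Mb (the epidermal differentiation complex) and chromosome 21 from 31.65 to 32.25 Mb (keratin-associated proteins). All deposited regions that overlapped an interval by at least 1 bp were members. They came to 35 of the 32543 CHD5 peaks and 1798 of the 257073 H3K27me3 regions, on 4.09 Mb in all. The intervals are fixed coordinates and use no peak value, although they were picked with earlier results of these data known.

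All cells had received 10 uM retinoic acid for 8 days. The profiles are an FBio-CHD5 pull-down on streptavidin beads and an H3K27me3 antibody precipitation, both from cells expressing FBio-CHD5, a tagged and introduced form of CHD5. An Fbio-Ctrl pull-down and an input complete the 4 libraries, and no region lists were used for these, so background capture at these places was not examined. Each group is 1 library, so no value below has a replicate error, no p-value is given, and 95% intervals (exact Poisson for densities, exact binomial for shares) cover counting error only. Neighbouring regions are not independent, which makes the intervals too narrow. The lists hold no read counts, and the depth is unknown.

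Keratins are the intermediate filament proteins of epithelial cells and are built as pairs of a type I and a type II chain. Keratin-associated proteins cross-link the filaments of hair, and the epidermal differentiation complex encodes proteins of the cornified cell layer of skin, such as filaggrin, loricrin and involucrin, together with S100 calcium-binding proteins. Most of these genes serve surface epithelia and are not known for a part in neurons. H3K27me3 is laid down by the Polycomb repressive complex over silent developmental genes, and CHD5 is a nucleosome remodeller of the chromodomain helicase family that is found mainly in nervous tissue and testis.

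The gene annotation at hand, from RefSeq, belongs to GRCh38.p14 and not to hg19. It was used for names and for the order of neighbours only, and no peak was assigned to a gene. The first and last gene of each cluster were picked by name, and their places against the hg19 edges were not checked. Genes listed here may thus lie outside an interval, and an interval may hold further genes. In that order the type II list runs from KRT80 to KRT18 through 27 protein-coding genes, all keratins. KRT18 itself is a type I chain. The type I list runs from KRT222 to KRT17 and holds 28 keratin and 34 KRTAP genes. The epidermal differentiation complex runs from S100A10 to S100A1 through 63 genes, of which 19 are LCE, 16 S100A and 11 SPRR genes. On chromosome 21, 33 KRTAP genes follow each other from KRTAP24-1 to KRTAP19-8.

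The promoters of these genes are shown because they share a feature that the choice of the intervals did not use, namely few CpG dinucleotides. RefSeq promoters of GRCh38.p14 run from 250 bases before to 50 bases after the start and are read in the direction of the gene. Capitals mark each CG and each TATAAA, searched on both strands. The first 5 belong to filaggrin (FLG), involucrin (IVL), loricrin (LORICRIN), keratin 10 (KRT10) and a hair keratin-associated protein (KRTAP13-1), and the last 2 to S100A10 and S100A6, whose promoters are rich in CpG. The examples were picked after their letters had been counted.
FLG: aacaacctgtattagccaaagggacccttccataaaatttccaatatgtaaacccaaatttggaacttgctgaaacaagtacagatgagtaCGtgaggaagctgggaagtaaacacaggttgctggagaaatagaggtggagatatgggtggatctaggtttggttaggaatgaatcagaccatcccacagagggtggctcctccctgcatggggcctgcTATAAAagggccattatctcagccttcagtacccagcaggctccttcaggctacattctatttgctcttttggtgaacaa
IVL: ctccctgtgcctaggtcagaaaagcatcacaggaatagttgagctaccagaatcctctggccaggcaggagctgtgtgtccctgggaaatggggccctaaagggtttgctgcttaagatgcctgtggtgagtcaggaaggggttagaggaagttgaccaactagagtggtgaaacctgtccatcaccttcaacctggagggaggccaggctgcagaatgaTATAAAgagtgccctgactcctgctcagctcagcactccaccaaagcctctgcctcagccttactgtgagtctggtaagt
LORICRIN: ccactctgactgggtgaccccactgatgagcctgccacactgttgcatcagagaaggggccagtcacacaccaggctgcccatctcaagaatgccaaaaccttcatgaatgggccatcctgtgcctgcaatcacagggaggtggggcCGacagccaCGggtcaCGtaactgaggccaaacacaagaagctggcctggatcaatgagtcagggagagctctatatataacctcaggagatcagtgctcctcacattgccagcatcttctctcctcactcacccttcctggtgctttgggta
KRT10: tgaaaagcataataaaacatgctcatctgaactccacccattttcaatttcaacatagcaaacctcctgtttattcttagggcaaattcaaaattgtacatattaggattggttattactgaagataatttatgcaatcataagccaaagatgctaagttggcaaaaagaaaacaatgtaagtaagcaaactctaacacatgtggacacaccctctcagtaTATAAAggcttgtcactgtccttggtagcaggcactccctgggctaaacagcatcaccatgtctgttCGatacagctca
KRTAP13-1: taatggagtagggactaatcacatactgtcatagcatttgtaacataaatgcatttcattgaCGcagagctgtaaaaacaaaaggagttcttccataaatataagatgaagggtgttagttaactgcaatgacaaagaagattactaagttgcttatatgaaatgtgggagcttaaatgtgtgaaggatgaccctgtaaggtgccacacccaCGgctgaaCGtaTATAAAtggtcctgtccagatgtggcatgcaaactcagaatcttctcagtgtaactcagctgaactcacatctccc
S100A10: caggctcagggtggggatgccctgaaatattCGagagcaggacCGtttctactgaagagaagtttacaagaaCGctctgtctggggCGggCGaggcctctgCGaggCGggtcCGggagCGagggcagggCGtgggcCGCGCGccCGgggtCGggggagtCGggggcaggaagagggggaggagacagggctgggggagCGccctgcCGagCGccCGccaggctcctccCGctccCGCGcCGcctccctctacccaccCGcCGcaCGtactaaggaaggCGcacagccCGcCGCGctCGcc
S100A6: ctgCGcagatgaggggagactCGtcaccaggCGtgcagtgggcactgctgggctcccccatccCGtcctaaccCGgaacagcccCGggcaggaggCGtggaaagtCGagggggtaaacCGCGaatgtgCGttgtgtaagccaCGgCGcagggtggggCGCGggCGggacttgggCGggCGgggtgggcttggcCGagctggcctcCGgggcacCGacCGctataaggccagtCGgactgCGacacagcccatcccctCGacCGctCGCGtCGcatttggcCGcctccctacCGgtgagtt

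In the FLG and IVL promoters the word TATAAA began 30 bases before the start, in KRT10 29 and in KRTAP13-1 26. FLG, IVL and KRT10 held 1, 0 and 1 CG, and LORICRIN and KRTAP13-1 held 3 each, against 32 in S100A10 and 31 in S100A6. LORICRIN, S100A10 and S100A6 had no TATAAA within this window.

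Across the gene lists of the clusters, 156 of the 185 genes had a promoter in the table. Their median was 2 CG per 300 bases (quartiles 1 and 3), against 21.5 (quartiles 9 and 31) over the 15843 protein-coding genes with a promoter there, cluster genes included. The word TATAAA stood on either strand in 105 of the 156, or 67.3%, against 12.4% of all 15843. Median GC was 45.5% in the cluster promoters and 62.3% over all, and neither count was adjusted for it. Genes of the same family are related in sequence, yet each was counted singly. For genes with several starts the median of their CG counts was taken, and a TATAAA at any start counted. By family the median was 2 for 34 KRT and 63 KRTAP genes, 3 for 18 LCE genes, 2 for 9 SPRR genes and 5 for 16 S100A genes. TATAAA was present in 21 of these KRT, 52 of the KRTAP, 9 of the LCE, 8 of the SPRR and 7 of the S100A genes. Only 34 of the 55 KRT genes had a promoter in the table. Those without one include KRT80, KRT7, KRT86, KRT81 and KRT83, which come first in the type II order. They also include KRT13, KRT15, KRT19, KRT14, KRT16 and KRT17, near the end of the type I order. The type II list had promoters for 14 of its 27 genes only, which is too few for a statement on that cluster alone. These are counts of letters and not of sites in use.

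**Figure D1:**
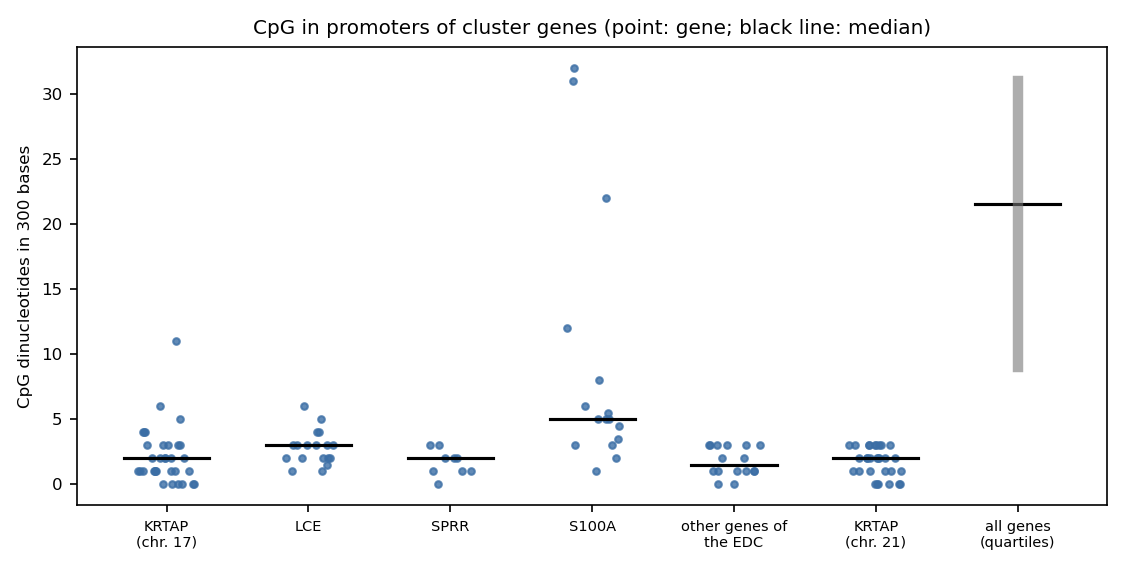
CG dinucleotides in the 300-base promoters of cluster genes by family, where each point is a gene and each black line a median; the bar at the right spans the quartiles of all genes. KRTAP, LCE and SPRR genes lie at 11 or below, and among S100A genes 3 lie above 20. KRT genes are not shown.

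H3K27me3 was dense over the 4 clusters as a whole. It lay at 439.6 regions per Mb over the 4 intervals, against 143.4 per Mb in their 1-Mb flanks, a ratio of 3.07 (95% interval 2.85 to 3.31). The covered share was 15.7% of the clusters and 5.12% of the flanks. Over all chromosomes there were 83.1 regions per Mb and 2.82% was covered, so the flanks too lay above the genome. Of 41 stretches of up to 100 kb into which the clusters were cut, 38 held H3K27me3 (92.7%), against 32 of 80 in the flanks (40.0%). The background over 30926 such bins of the genome was 37.1%.

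CHD5 was sparser in the clusters than beside them. The clusters held 8.56 peaks per Mb and the flanks 24.0, a ratio of 0.357 (0.241 to 0.513), with 1.64% against 5.03% of the bases covered. A CHD5 peak lay in 8 of the 41 cluster bins (19.5%) and in 58 of the 80 flank bins (72.5%), against 46.2% of all bins. Bins with H3K27me3 and no CHD5 made up 33 of the 41 (80.5%) in the clusters and 14 of the 80 (17.5%) in the flanks, against 25.6% of all bins. Bins with both made up 5 of 41 (12.2%) in the clusters and 18 of 80 (22.5%) in the flanks, against 11.5% of all bins. The genome averaged 10.5 CHD5 peaks per Mb, below the pooled flanks and above the pooled clusters. No interval was taken for the pooled densities. Singly, the type II cluster held 21.5 per Mb, and the chromosome 21 flanks held 6.0.

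**Figure D2:**
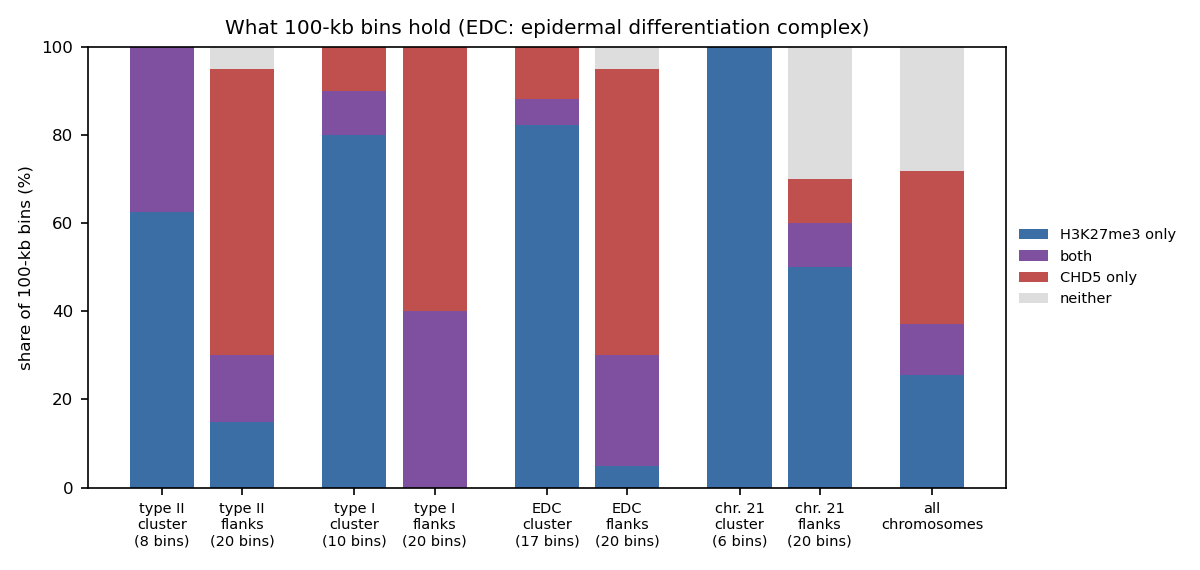
Share of 100-kb bins holding H3K27me3 only, both profiles, CHD5 only or neither, for each cluster beside its flanks and for all chromosomes. No cluster bin was empty, and H3K27me3 without CHD5 took 62.5% to 100% of the bins of each cluster.

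The clusters differed from each other in how far they stood apart from their surroundings. The type I interval was the densest, with 695 H3K27me3 regions per Mb (644 to 749). Its lower flank, the one at smaller coordinates, held 167 per Mb and its upper flank 16. The epidermal differentiation complex had 352 per Mb (324 to 381), against 76 in the lower and 11 in the upper flank. The type II interval had 390 per Mb (347 to 436), against 9 in the lower and 291 in the upper flank. The chromosome 21 interval had 328 per Mb (284 to 378), against 395 and 182.

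Against both flanks together the ratio of densities was 7.60 (6.45 to 8.99) for the type I cluster, 8.09 (6.45 to 10.2) for the epidermal differentiation complex and 2.60 (2.21 to 3.06) for the type II cluster. On chromosome 21 it was 1.14 (0.963 to 1.34), which does not separate the cluster from its flanks. The ratios moved with the flank width. With 0.5 Mb on each side they were 69.5, 4.40, 21.7 and 0.670 in the same order, and with 2 Mb they were 11.9, 14.5, 2.29 and 2.11. The chromosome 21 value thus lay on either side of 1.

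The genome was also divided into stretches as long as each cluster, and regions were counted in them by midpoint. At least as many H3K27me3 regions as in the type I cluster were found in 17 of 3084 stretches, or 0.551%. For the epidermal differentiation complex it was 5.97%, for the type II cluster 6.87% and for the chromosome 21 cluster 9.51%. At most as many CHD5 peaks were found in 42.6% of the stretches for the type I cluster, 42.0% for the epidermal differentiation complex, 87.1% for the type II cluster and 21% for the chromosome 21 cluster. The CHD5 count of the type II cluster was thus high for the genome and those of the other clusters were not rare, while H3K27me3 counts this high were found in under 10% of the stretches for each cluster. Stretches in assembly gaps are among those counted and can only hold none of either.

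**Figure D3:**
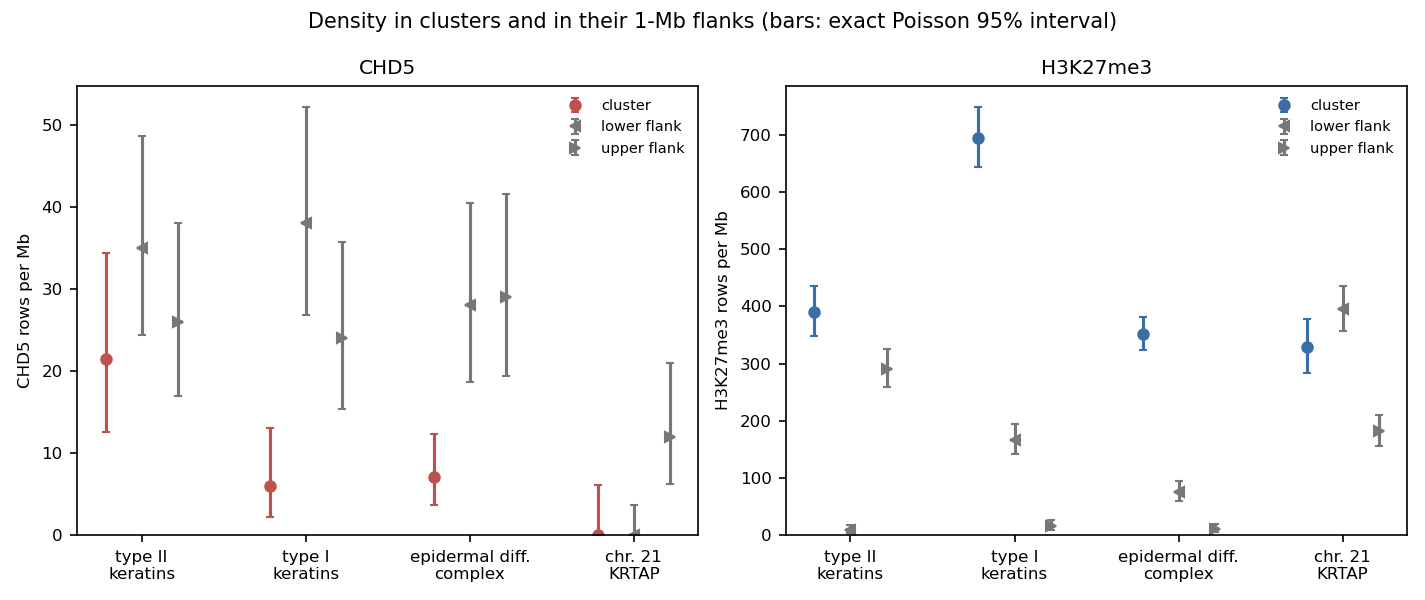
CHD5 peaks and H3K27me3 regions per Mb in each cluster (coloured) beside its lower and upper 1-Mb flank (grey), with exact Poisson 95% intervals for counting error. H3K27me3 is above both flanks in 3 clusters. CHD5 is below both flanks, with intervals apart, in the type I cluster (6 per Mb) and the epidermal differentiation complex (7.06 per Mb). In the type II cluster it is also below both (21.5 per Mb, against 35.0 and 26.0), but the intervals overlap.

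In the type II keratin interval CHD5 and H3K27me3 lay largely in different parts, although 3 of its 8 bins held both. All 17 CHD5 peaks lay in the first 300 kb, at 9, 6 and 2 in successive bins of 100 kb. The remaining 490 kb up to the end, or 62.1% of the interval, held none. H3K27me3 was sparse in the first 200 kb and dense beyond it. Its counts from the start were 2, 2, 36, 53, 87, 56, 50 and 22, the last bin being 90 kb long. The stretch without CHD5 held 268 of the 308 H3K27me3 regions, at 546.5 per Mb, against 133.5 per Mb in the part before it. In the gene order KRT80, KRT7 (a keratin of simple epithelia) and the hair keratins KRT86, KRT81, KRT83, KRT85, KRT84 and KRT82 come first. KRT8 and KRT18, the pair of simple epithelia, come last.

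The strongest of these 17 peaks, by the authors' score, lay on chromosome 12 from 52585288 to 52588077 and scored 510.34, followed by 484.46 for the peak from 52636023 to 52639431. The next were 417.42 from 52608715 to 52612011, 414.77 from 52683247 to 52685327 and 254.72 from 52695436 to 52697513. All 5 began within 135.4 kb of the start of the cluster. The last peak, from 52858750 to 52859618, was among the weakest at 70.21 and the narrowest at 869 bp. It lay 2.21 kb from the nearest H3K27me3 region, and the peak before it, from 52784681 to 52785721, lay 2.94 kb from one. The closest approach was 0.642 kb, at the peak from 52652426 to 52653770. None of the 17 overlapped H3K27me3, and none of the 61 in the flanks did.

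Over the whole cluster the CHD5 density could not be told apart from that of the flanks. The type II cluster held 21.5 CHD5 peaks per Mb (12.5 to 34.4), against 30.5 in both flanks, a ratio of 0.706 (0.386 to 1.22) whose interval includes 1. It was 1.89 times the mean of chromosome 12. CHD5 peaks were also present across the upper flank, at 4, 3, 5, 3, 5, 3, 2 and 1 in its first 8 bins, and at 0 in the last 2, where 138 and 105 H3K27me3 regions lay. The widest domain there, from 54293801 to 54406733, spanned 112933 bp with 129 regions and ran beyond the end of the flank. The mark covered 10.2% of the cluster, against 11.9% of the upper flank.

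H3K27me3 regions in the type II cluster were short and low in score. Their median width was 203 bp (quartiles 162 and 296) in the cluster and 272.5 bp in the flanks, and their median score was 74.3 in the cluster and 111.5 in the flanks. Over the whole list the medians were 238 bp and 84.6. Joined across gaps of up to 3 kb, they formed 44 domains that took in 33.3% of the interval, against 11.3% of the flanks. The widest were 26.8 kb (from 52989440 to 53016267, 30 regions), 23.7 kb (from 52822650 to 52846349, 22 regions) and 22.9 kb (from 53074733 to 53097590, 26 regions), and none held CHD5. The highest scores, 985, 683 and 661, stood at 52884139 to 52886054, 52866557 to 52867581 and 52845145 to 52845933. They began 324.1, 306.6 and 285.1 kb from the start of the cluster, on either side of its last CHD5 peak, which began at 298.7 kb.

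In the type I keratin interval the profiles lay apart, with 1 H3K27me3 region as the exception. The first 877 kb, or 87.7% of the cluster, held no CHD5 peak and 694 of its 695 H3K27me3 regions, at 791 per Mb. The rest held all 6 CHD5 peaks and 1 H3K27me3 region. By 100-kb bin H3K27me3 had 122, 86, 113, 105, 88, 101, 70, 9, 0 and 1 regions, and CHD5 had 3 in each of the last 2 bins and 0 before. Between them, from 39557520 to 39677175, lay 120 kb with neither. The order of genes places KRT222, KRT24 to KRT28 and KRT10 at the start, the KRTAP genes in the middle, and KRT13, KRT15, KRT19, KRT9, KRT14, KRT16 and KRT17 at the end. KRT14 is the type I keratin of the basal epidermis, and KRT16 and KRT17 are keratins of injured or proliferating epidermis.

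The 6 CHD5 peaks began with the strongest, on chromosome 17 from 39677176 to 39681162, which scored 781.51 and was 3987 bp wide. The second, from 39685052 to 39687983, scored 516.16, and the next by score, 321.33, lay from 39703380 to 39705861. The other peaks scored 68.01 (from 39693348 to 39694358), then 86.51 (from 39699668 to 39701476) and 87.01 (from 39791208 to 39792454). The first 5 began between 877.2 and 903.4 kb from the start of the interval, and the last ended 7.55 kb before its end. Their distance to the nearest H3K27me3 region was 40.4 to 69.4 kb. The density was 6.00 per Mb (2.20 to 13.1) in the cluster, against 38.0 in the lower and 24.0 in the upper flank, a ratio of 0.194 (0.0684 to 0.446) to both flanks.

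Within the part without CHD5, H3K27me3 formed wide blocks. The first ran for 99.8 kb from 38811828 to 38911671 with 137 regions and was the 75th widest of 38537 domains in the genome. The second spanned 83.4 kb from 39037019 to 39120437 with 124 regions and ranked 132nd. The next spanned 37.0 kb from 39361967 to 39398978. Domains took in 50.1% of the interval, against 6.18% of the flanks, and 16 of its 30 domains were at least 10 kb wide. The highest score, 2068.46, belonged to a region of 2555 bp from 38819192 to 38821746, in the first block. The next, 1227.61 and 1218.20, lay from 38934153 to 38936224 and from 38831850 to 38833200. Medians were 275 bp and a score of 108 in the cluster, and 305 bp and 120 in the flanks. In the lower flank, most of the 167 regions lay in 2 neighbouring bins, with 93 at 900 to 800 kb and 71 at 800 to 700 kb before the cluster, and its widest domain spanned 45828 bp, from 38008782 to 38054609.

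In the epidermal differentiation complex CHD5 was limited to the ends. A stretch of 1429 kb, or 84.1% of the interval, held no CHD5 peak and 521 of the 598 H3K27me3 regions, at 364.5 per Mb. Before it stood a single peak, on chromosome 1 from 152019860 to 152021250, with a score of 61.65, 0.960 kb from an H3K27me3 region. After it came 11 peaks in the last 200 kb, where the interval itself held no H3K27me3 region at all. The change was abrupt: the stretch without H3K27me3 began at 153444434, and the first CHD5 peak began 5.99 kb from the last H3K27me3 region, at 153450425. In the gene order S100A10 and S100A11 come first and S100A6 to S100A1 last. Between them lie FLG, the LCE and SPRR genes, IVL and LORICRIN, and also S100A9, S100A12, S100A8, S100A7A and S100A7. Whether the interval ends at S100A1 was not checked, so the peaks at its end are not placed at the S100A genes.

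These 12 peaks had the lowest scores of the 3 clusters that held CHD5, with a median of 97.0 and a highest of 242.08. The highest belonged to the peak from 153649611 to 153652397, which crosses the end of the interval. It shared 731 bp with H3K27me3, all of it beyond the end, and was the only one of the 35 cluster peaks to overlap the mark. The next highest were 213.76 from 153497643 to 153499892, 213.49 from 153450425 to 153452599, then 192.00 from 153597401 to 153601412 and finally 152.50 from 153643320 to 153645488. The widest, the one that scored 192.00, spanned 4012 bp. CHD5 lay at 7.06 peaks per Mb (3.65 to 12.3) in the cluster, against 28.0 in the lower and 29.0 in the upper flank, a ratio of 0.248 (0.121 to 0.467) to both flanks.

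H3K27me3 within the complex was densest near its start and just before the CHD5 peaks of its end, with lower counts between. The first 2 bins of 100 kb held 100 and 43 regions and the next 2 held 6 and 5. From 400 to 1200 kb the counts were 28, 14, 16, 33, 36, 36, 21 and 30, the next 3 bins held 51, 86 and 93, and the last 2 held 0. A domain of 130 kb from 151886792 to 152016365, with 151 regions, crossed the start of the interval, reached 66.4 kb into it and was the 41st widest in the genome. Of the 76 regions of the lower flank, 74 lay in its last 100 kb, where this domain runs. The next domains were smaller, at 24.9 kb (from 153356270 to 153381173) and 20.8 kb (from 153262115 to 153282959). The longest stretch with neither profile was 64.5 kb, from 152199727 to 152264187.

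Single regions of this complex stood high in the whole H3K27me3 list. The region from 153234107 to 153236781 scored 3218.29, a value reached by 3 of 257073 regions. Those from 151963607 to 151966407 and from 152084781 to 152087895 scored 2482.81 and 2258.33, values reached by 517 and 614 regions, and the last of these was 3115 bp wide. The bulk was not high: the median score was 103 in the cluster and 150 in the flanks, and the median width was 307 bp in the cluster and 367 bp in the flanks. Domains took in 28.1% of the interval, against 3.48% of the flanks.

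The chromosome 21 interval held no CHD5 peak. A count of 0 on 0.6 Mb has an exact Poisson interval of 0 to 6.15 peaks per Mb, and 3 counts would come to 5 per Mb. Its lower flank held none either, and the upper flank held 12, from 200 kb beyond the interval onward. The interval of the density ratio reached 1.2 against both flanks, so the cluster could not be told apart from them, and 0.600 against the upper flank alone. H3K27me3 was present in every bin of the cluster, at 28, 29, 34, 18, 27 and 61 regions in its bins of 100 kb. It was also present in every bin on both sides as far as these counts run. Counts were 84, 80, 80, 49, 52 and 49 in the 600 kb before the interval, and 58, 109 and 13 in the 300 kb after it.

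The edges of this interval thus did not coincide with a change in H3K27me3 like that at the start of the type I cluster, where the last 100 kb before it held 1 region and the first 100 kb within it 122. The widest domains in the cluster spanned 20.8 kb (from 31638310 to 31659090, crossing the start), 19.0 kb (from 32150559 to 32169528) and 15.2 kb (from 31895012 to 31910251). The widest of the lower flank spanned 81153 bp (from 31109511 to 31190663) and that of the upper flank 70837 bp (from 32388922 to 32459758). The highest score was 515.57, at the region from 32152132 to 32152903, followed by 319.52 from 32157353 to 32157946 and 314.79 from 32184905 to 32185598. The median score was 79.0 in the cluster and 85.2 in the flanks.

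**Figure D4:**
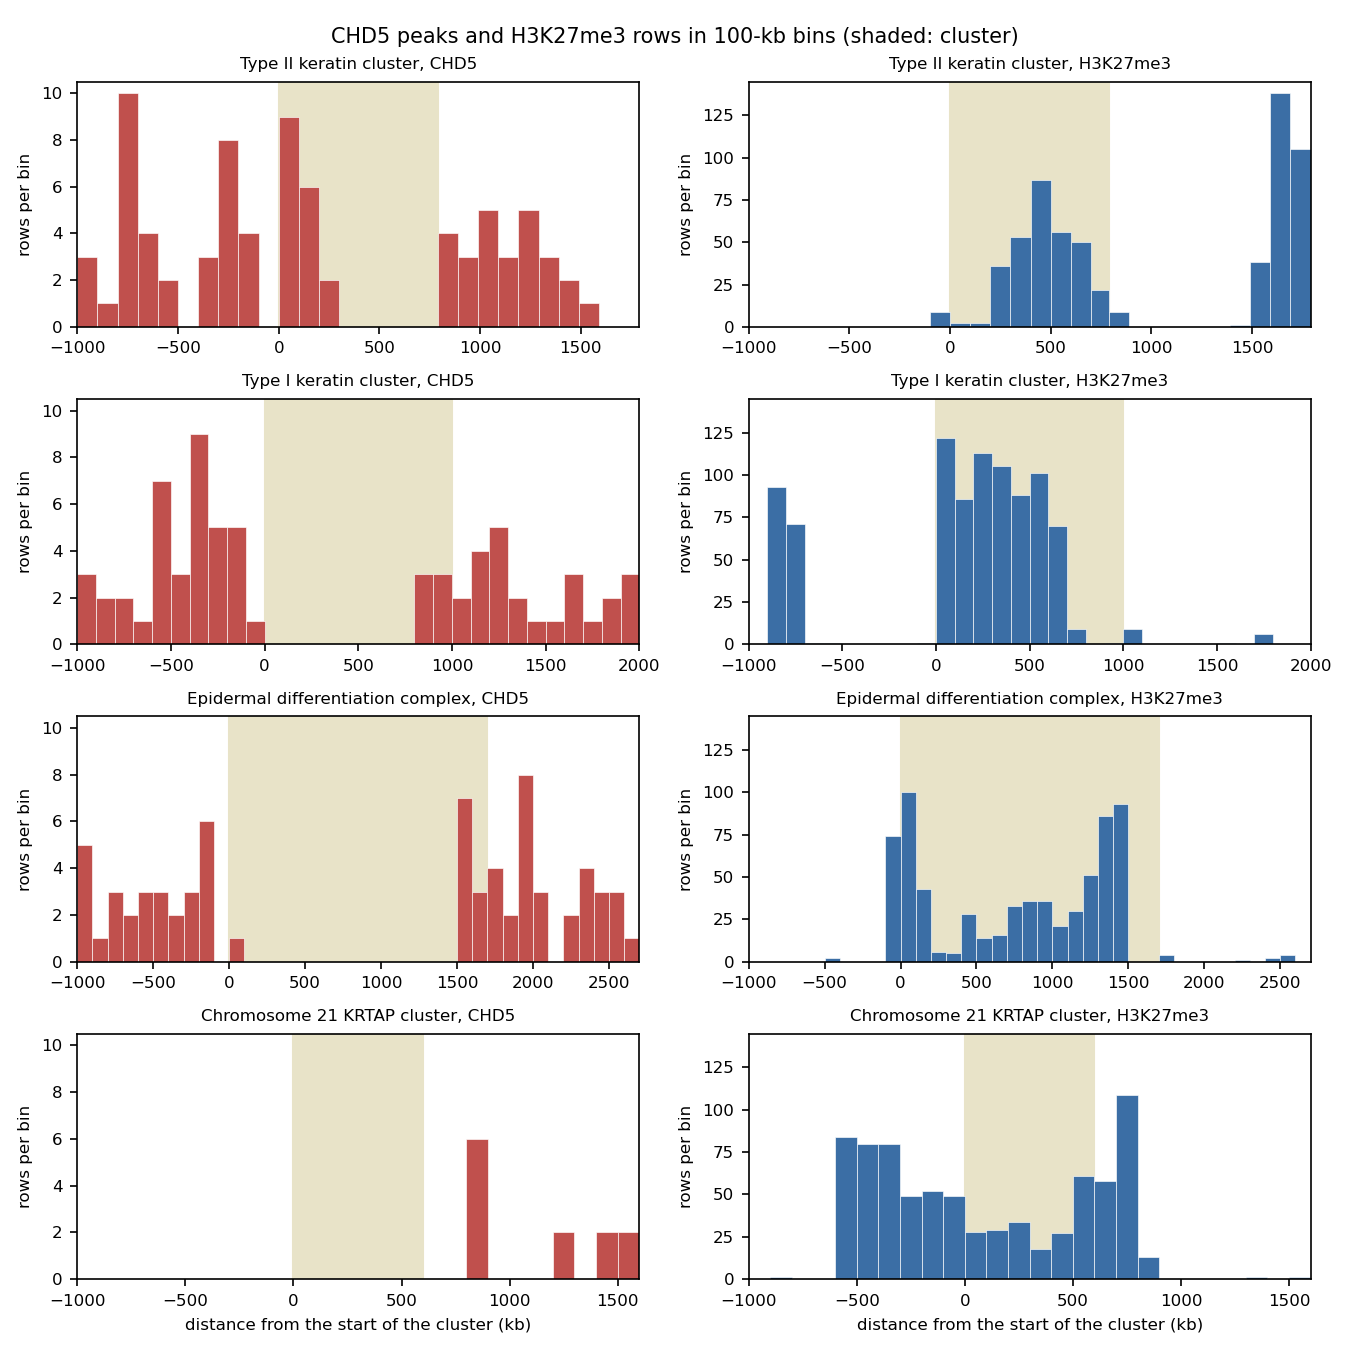
Number of CHD5 peaks (left) and H3K27me3 regions (right) in 100-kb bins along each cluster, shaded, and its 1-Mb flanks, by distance from the cluster start. CHD5 lies in the first 300 kb of the type II cluster, in the last 200 kb of the type I cluster and, but for 1 peak in its first bin beside 100 H3K27me3 regions, in the last 200 kb of the epidermal differentiation complex. The bins with most CHD5 hold 0 to 2 H3K27me3 regions, the third type II bin holds 36 beside 2 CHD5 peaks, and the chromosome 21 cluster has no CHD5.

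Region by region, the profiles rarely met. Of the 35 CHD5 peaks 1 overlapped H3K27me3, or 2.86%, against 3 of 192 in the flanks (1.56%) and 2.19% of all CHD5 peaks. With so few peaks these shares cannot be told apart. Of the 1798 H3K27me3 regions 0 were touched by CHD5, against 8 of 1147 in the flanks (0.697%) and 0.503% of all H3K27me3 regions. The flank regions touched were 2 of the lower flank of the type I cluster, 1 of the lower flank of the epidermal differentiation complex and 5 of its upper flank.

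The median distance from a CHD5 peak to the nearest H3K27me3 region was 40.4 kb in the clusters and 137.5 kb in the flanks. It was 166 kb over all peaks. Such distances, and shares within 10 kb, depend on the density of the other list, for which no allowance was made. H3K27me3 was denser in the clusters (439.6 against 143.4 regions per Mb), and CHD5 was sparser (8.56 against 24.0 peaks per Mb). Within 10 kb of the mark lay 3 of 17 peaks of the type II cluster, against 1 of 61 in its flanks. In the epidermal differentiation complex it was 4 of 12 peaks, against 4 of 57 in its flanks. For the peaks from 153643320 to 153645488 and from 153649611 to 153652397, the nearest mark lay beyond the end of the interval. The type I cluster had 0 of 6 peaks, against 6 of 62 in its flanks, and 6 peaks are too few to give a direction. Over all CHD5 peaks the share within 10 kb was 7.77%. From the side of the mark the distance was longer in the clusters. The median H3K27me3 region lay 253 kb from a CHD5 peak in the clusters and 92.9 kb in the flanks. It was 153 kb in the type II cluster, 313 kb in the type I cluster, 172 kb in the epidermal differentiation complex and 537.5 kb in the chromosome 21 cluster.

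Pooled over the clusters, CHD5 peaks were close to those of the flanks in median width and score. The median width was 1809 bp in the clusters and 1811 bp in the flanks, and the median score was 111 in the clusters and 121 in the flanks, against 1647 bp and 117 over all peaks. The separate clusters differed in sign for width, with medians of 1485 bp against 1773 bp in the flanks for type II, 2145.5 bp against 1531 bp for type I, and 2161 bp against 2368 bp for the complex. Per cluster the median score was 127 against 119 in the flanks for type II. It was 204 against 120 for type I from 6 peaks, and 97.0 against 133 for the epidermal differentiation complex. The type II difference changed sign with the flank width, from 7.61 to -0.93 with 0.5 Mb and -2.1 with 2 Mb. The quartiles overlapped in each pair, at 70.5 to 255 in the type II cluster and 89.8 to 307 in its flanks, 86.6 to 467.5 in the type I cluster and 75.9 to 213.5 in its flanks, and 64.2 to 197 in the complex and 66.6 to 196 in its flanks.

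The strongest CHD5 peaks of the flanks scored above those of the cluster beside them, except in the upper flank of the type I cluster. In the lower flank of the type I cluster the peak on chromosome 17 from 38462090 to 38469128 scored 1542.27 and was 7039 bp wide, and in the upper flank the highest was 490.08, from 40062640 to 40065176. In the flanks of the type II cluster the highest scores were 833.08 (from 51798223 to 51802528) and 984.86 (from 53805715 to 53810763). For the epidermal differentiation complex they were 674.54 (from 151030175 to 151036311) and 419.94 (from 154296603 to 154299839), and on chromosome 21 the highest was 480.22 (from 32543579 to 32547899). These peaks lay between 78.6 and 683 kb from the nearest H3K27me3 region.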

How the data were processed

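CHD5 and H3K27me3 were profiled by ChIP-seq in SH-SY5Y cells. Per the file headers, MACS called both region lists, each for 1 library. Positions are in hg19, which the submitters' processing notes name. For the aligner, and for the version, threshold and background of MACS, the sources used here give nothing. Each region carries a score deposited by the authors, on a scale that is not stated, with a minimum of 50 in both lists; it was used only within its own list.

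Regions were assigned to an interval by an overlap of at least 1 bp, and those crossing an edge counted in the cluster. Regions up to 3 kb apart were joined into domains. Bins of 100 kb were counted by region midpoint, up to the highest region end of each chromosome. Densities carry exact Poisson, shares exact binomial (Clopper-Pearson) and ratios exact conditional binomial 95% intervals. No test between groups was possible with 1 library each. Routines were tested on simulated data, and bedtools 2.31.1 gave the same 712 overlapping CHD5 peaks and 38537 domains. Software was matplotlib 3.10.9, Python 3.11.15, scipy 1.17.1, pandas 2.3.3 and numpy 2.4.6. Named positions are all CHD5 peaks where a cluster had 10 or fewer, otherwise the 5 highest scores and any overlapping peak, the 3 widest domains, the 3 highest H3K27me3 scores, the longest empty stretches, and the highest CHD5 peak and widest domain of each flank; others were named after their values were seen. The intervals and comparisons were chosen with earlier results of these data known. Promoter letters were counted after the data were examined. A genome of the files' build was not used here.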

Additional observations from a re-analysis of the deposited data

How the results depend on the processing

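Of 127 alternatives, 99 left a value within a set margin of the reported one, and 28 moved it further. For densities the margin was the interval of the reported ratio, and for covered shares and domains 1.5 times the value. For differences in score, width and overlap, the margin came from the interval of the cluster value alone. It was wide where peaks were few, so staying within it says little there. For the 6 CHD5 peaks of the type I cluster, the interval of the overlap share ran from 0 to 45.9%. All 20 alternatives for CHD5 density and all 16 for its covered share were among the 99. Those for chromosome 21 could not move, as that cluster held no CHD5 peak. With flanks of 0.5 Mb the H3K27me3 density ratio was 21.7 (type II), 69.5 (type I), 4.40 (epidermal differentiation complex) and 0.670 (chromosome 21), and the covered-share ratio 18.3, 74.6, 3.32 and 0.616. With flanks of 2 Mb the density ratio was 11.9 (type I), 14.5 (complex) and 2.11 (chromosome 21), and the covered-share ratio 12.2, 11.4 and 1.83. With regions at or above the median score the density ratio was 1.78 (type II), 6.40 (complex) and 0.952 (chromosome 21). Without joining, the type II domain ratio was 1.66. Score differences of the mark, cluster minus flanks, moved to -4.11 and -22.8 (type II, flanks of 0.5 and 2 Mb) and -34.7 (complex, 2 Mb). Width differences moved to -27.0 and -41.5 bp (type II) and -11.5 and -9.00 bp (type I), and for CHD5 to -586 bp (complex, 0.5 Mb). Counting CHD5 within 10 kb of the mark gave differences of 16.0 and 26.3 percentage points (type II, complex). In the complex this took in peaks near H3K27me3 beyond the end of the interval. The cause of these moves was not tested. For chromosome 21 the density and covered-share ratios lay on either side of 1.

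No paired analysis was possible because each group is 1 library; for the same reason no replicate was left out. Depth is unknown, so what a stretch without regions falls below is not known.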
